A study of Mus musculus with 8 samples.

Results

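The genes described here are 37 transcripts enriched in astrocytes: transporters, gap junction proteins, channels, metabolic enzymes, receptors, secreted proteins and markers of astrocyte identity. They were taken by symbol from a list whose rule uses no measured value, although it was drawn up with results of these data known, and were matched to Ensembl identifiers in a table of 53379 genes, where all 37 were found. RNA sequencing was done on the cingulate gyrus, named cingulate cortex in the sample labels, of 4 WT and 4 Mvp KO samples from untreated male mice of a C57BL/6 background. The knockout allele is a gene trap, a β-galactosidase and neomycin resistance cassette inserted in the first intron of *Mvp*, the gene of the major vault protein, so the line goes back to a single trapped clone and carries the insertion in every cell type. The age of the mice whose RNA was sequenced is not given in the sources used here. The comparison addresses which transcripts differ in this cortical region when *Mvp* is lost. The study calls its replicates biological, while the labels do not tie each sample to an animal, so the p-values measure the spread between these samples.

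Astrocytes are the glial cells that take up glutamate and GABA released at synapses, return glutamine to neurons, buffer potassium and water, and hold the end-feet that cover blood vessels. They are joined to each other by gap junctions and supply neurons and synapses with lipids and matrix proteins. In injury they raise intermediate filament genes such as *Gfap* and *Vim*. Several genes of the list are also transcribed by other cells: *Apoe*, *Cst3*, *Clu* and *Sparcl1* by microglia, neurons or vessel cells, *Glul*, *S100b* and *Ndrg2* in part by the oligodendrocyte lineage, and *Vim* by vessel and meningeal cells. In bulk tissue, fewer astrocytes and less RNA per astrocyte cannot be told apart.

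The samples held between 28456504 and 42854368 counts. *Mvp* was the single gene called among the 16914 genes tested, with 173 to 309 counts in WT and 43 to 81 in Mvp KO samples (log2 fold change -2.06, SE 0.186, adjusted p = 0.0162, quasi-likelihood test of edgeR, adjusted by Benjamini and Hochberg over all genes tested). Without any one of WT replicates 1, 2 and 3 or Mvp KO replicates 1, 2 and 4, its adjusted p lay between 0.0918 and 0.147 in the same test. WT replicate 4 stood apart from the other samples, at 71.5 on a first principal component that held 46.0% of the variance, where the other 7 samples lay between -20.4 and -2.78. In WT replicate 4, 1548 genes (9.15% of those tested) were at least 2-fold away from the median of the other samples. None of the 37 astrocyte genes was that far away in this or any other sample. All 10 neuron markers and all 10 oligodendrocyte markers had counts in every sample, whereas the 7 markers of ependyma and choroid plexus summed to at most 13.6 CPM (counts scaled to a common library total with TMM factors).

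The astrocyte genes were detected in every sample, and none of them was called between Mvp KO and WT. The lowest count of any of the 37 in any sample was 438, for *Sox9* in Mvp KO replicate 3, and all 37 passed the filter on low counts. Together they summed to 14884, 15943, 15092 and 14426 CPM across the WT samples, in replicate order, and to 13339, 15051, 13868 and 14058 CPM across the Mvp KO samples. These sums overlapped, with means of 15086 ± 635 CPM in WT and 14079 ± 716 CPM in Mvp KO (SD, n = 4 each). They corresponded to 1.31 to 1.62% of all counts in WT and 1.38 to 1.54% in Mvp KO.

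Of the 37 genes, 0 were called at an adjusted p below 0.05 (lowest adjusted p = 0.969, edgeR's quasi-likelihood test), against 0.00591% of all genes tested. At an unadjusted p below 0.05, 1 gene of the list passed, *Aldoc*, against 1.56% of all genes tested in either direction and 0.863% in its direction, lower in Mvp KO. Other tools also called 0 of the 37: DESeq2 gave 1 unadjusted p below 0.05 and limma voom 8. Over all genes, DESeq2 gave 1.17% of 30700 genes, taken without the filter on low counts, and limma voom 3.28% of 16914. After adjustment they called 0.00651% and 0.00591% of these genes. The DESeq2 shares thus include many genes with few counts and are not on the same footing as the others. The log2 fold change was below 0 for 31 of the 37 genes and above 0 for 6, where 50% of all genes tested and 57.3% of the 8227 genes at or above the level of the lowest member were below 0. The median log2 fold change was -0.080 over the list, -0.019 over those 8227 genes and 0 over all genes tested, and the single values ran from -0.20 for *Kcnj10* to 0.13 for *Gfap*. The members are not independent replicates of the genotype, since all of them were read in the same 8 samples. The number of genes below 0 was between 28 and 33 when a sample was left out and 37 with limma voom. The median kept its sign under every alternative, between -0.122 with limma voom and -0.055 without WT replicate 2.

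The size of difference that these samples leave room for was read from the 95% interval of each log2 fold change. For 35 of the 37 genes (94.6%) the interval lay within a 1.5-fold difference in both directions, against 64.5% of all genes tested and 90.2% of the genes at or above the lowest member's level. The exceptions were *Gfap*, with an interval of -0.45 to 0.71, and *Vim*, with -0.44 to 0.59. The number of genes inside this bound was between 32 and 36 over the alternatives. Of the list, 1 gene had no overlap between the 4 WT and the 4 Mvp KO samples, against 1.52% of all genes tested in either direction and 0.692% with the Mvp KO samples lower.

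**Figure D1:**
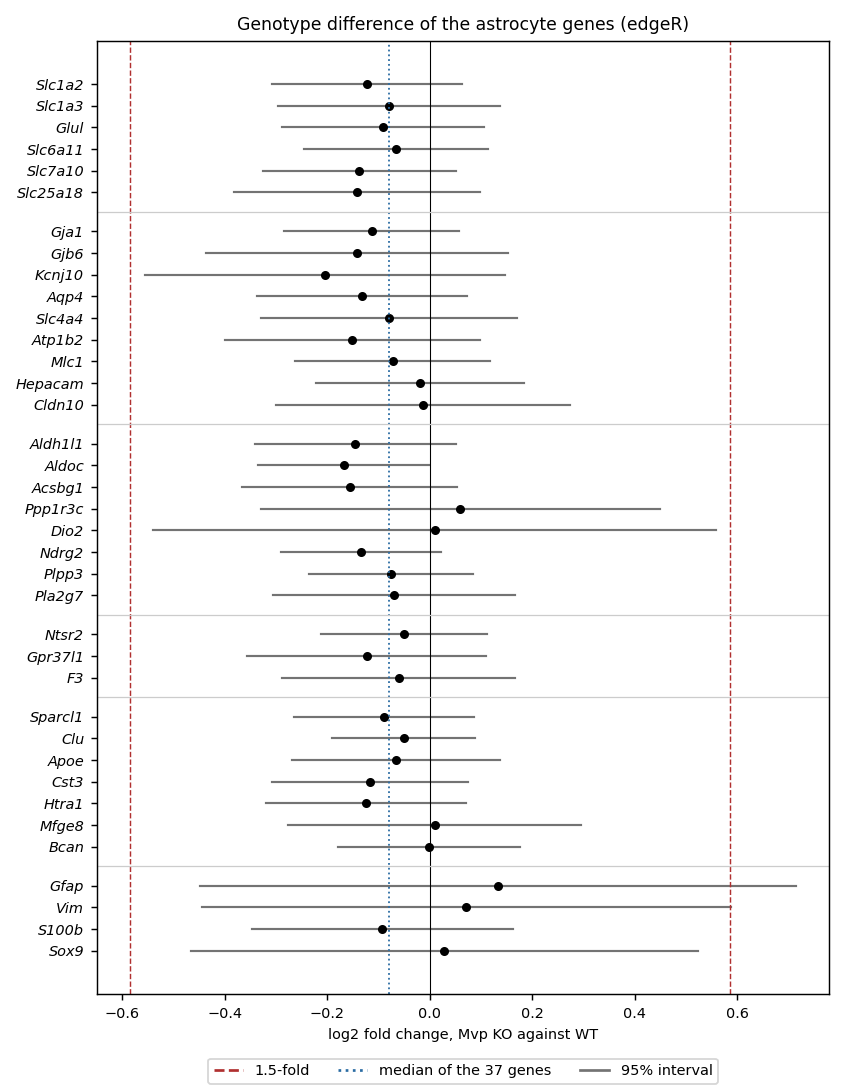
Log2 fold change of each of the 37 astrocyte genes, Mvp KO against WT, on the x axis, with genes grouped by role on the y axis. Points are edgeR estimates from 4 samples per genotype, bars are 95% intervals, dashed lines mark 1.5-fold and the dotted line marks the median of -0.080. The interval of every gene but *Gfap* and *Vim* stays inside the dashed lines.

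Levels between genes were compared per length, as TPM (counts per base, scaled to a common total) on the union of annotated exons, over all 8 samples. The order ran from *Sparcl1* at 2566 ± 158 TPM (SD, n = 8) to *Sox9* at 18.7 ± 4.29 TPM, around a median gene at 141 TPM. Most neighbours in this order could not be separated. The ranges of the 8 samples did not overlap between *Sparcl1* and *Glul*, *Apoe* and *Slc1a2*, *Aldoc* and *Ndrg2*, *Ndrg2* and *Clu*, *Clu* and *Slc1a3*, *S100b* and *Mlc1*, and *Aldh1l1* and *Cldn10*. For the other neighbours the ranges overlapped. The order changed when the longest transcript was used as length, so separated ranges do not fix it. *Apoe* (2345 TPM) and *Cst3* (2344 TPM) were then above *Sparcl1* (2133 TPM). Likewise *Ndrg2* (998 TPM) and *Clu* (979 TPM) were above *Aldoc* (891 TPM). The spread between samples of the same genotype, as the pooled SD of log2 CPM, had a median of 0.136 over the list, against 0.200 over all genes tested and 0.134 over the genes at or above the lowest member's level.

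**Figure D2:**
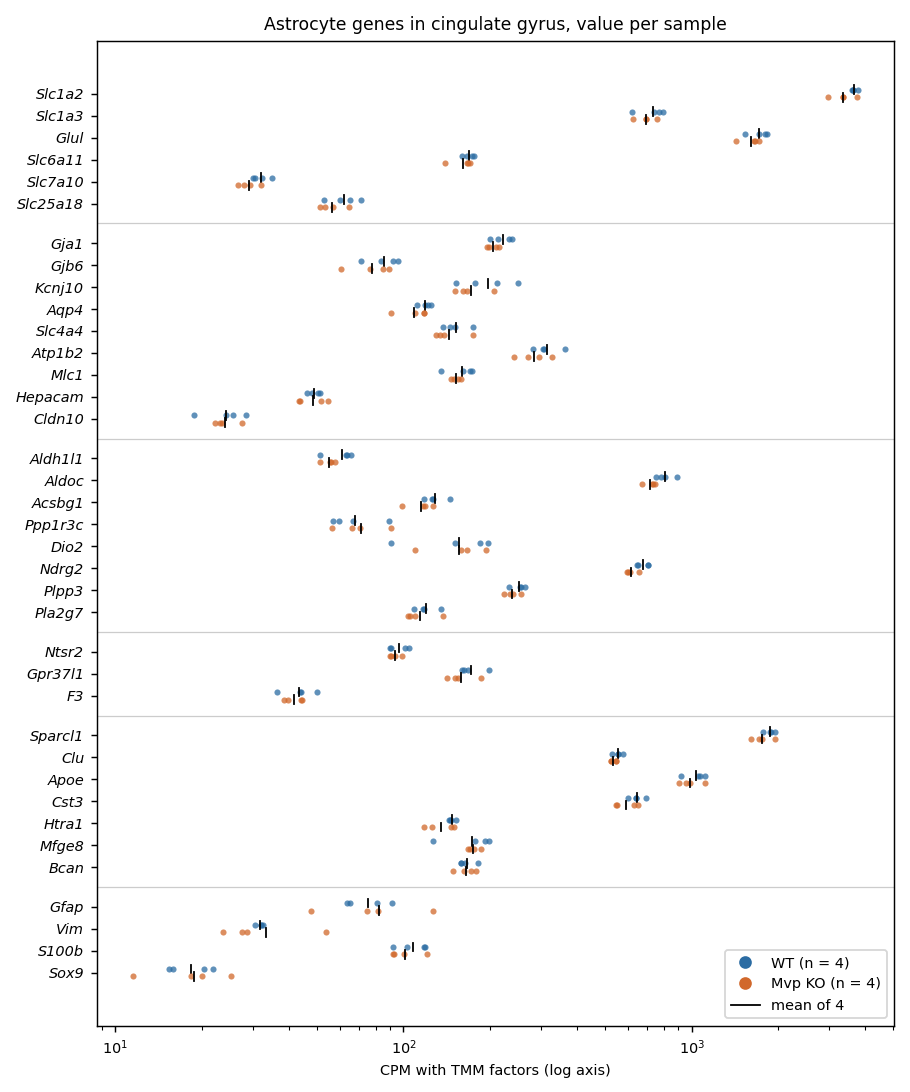
CPM with TMM factors (log axis) of the 37 astrocyte genes, 1 point per sample, with WT and Mvp KO (n = 4 each) drawn on separate lines and the mean of each genotype as a black tick. The genotypes overlap for every gene except *Aldoc*.

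The glutamate, GABA and amino acid group holds 6 genes, of which 0 were called, and all 6 had a log2 fold change below 0 (median -0.107). *Slc1a2* encodes GLT-1, the main glutamate transporter of the forebrain, and *Slc1a3* encodes the related transporter GLAST. *Slc1a2* was at 1113 ± 80.6 TPM and *Slc1a3* at 349 ± 38.3 TPM over the 8 samples. *Slc1a2* read 3629.6, 3784, 3589 and 3636 CPM in the WT samples, in the order of their replicate numbers, and 2977, 3754, 3349 and 3364 CPM in the Mvp KO samples. Mvp KO replicate 1 was the lowest sample for *Slc1a2*, while Mvp KO replicate 2 lay among the WT samples. Its log2 fold change was -0.12 (SE 0.0827), a difference of -8.16% that did not pass the test, and -0.068 without Mvp KO replicate 1. *Slc1a3* read 796, 771, 742 and 622 CPM in WT and 624, 696, 697 and 758 CPM in Mvp KO samples. Here WT replicate 4 was the lowest sample of all, next to Mvp KO replicate 1, and the genotypes overlapped (log2 fold change -0.080, SE 0.0963). Without 1 of WT replicates 1 and 4 and Mvp KO replicates 1 and 4 it was -0.039, -0.15, -0.030 and -0.13.

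*Glul* encodes glutamine synthetase, which turns the glutamate taken up into glutamine. Its level of 2089 ± 193 TPM was the second in the list on the exon union, and its range overlapped that of *Cst3*. It read 1714, 1804, 1823 and 1529 CPM in WT and 1430.4, 1715, 1654 and 1649.8 CPM in Mvp KO samples, so that 3 WT samples and 3 Mvp KO samples lay between 1649.8 and 1823 CPM. The lower values came from WT replicate 4 and Mvp KO replicate 1 (log2 fold change -0.091, SE 0.0878), and without them in turn it was -0.14 and -0.036. *Slc7a10*, a transporter of small neutral amino acids such as serine, was at 60.1 ± 4.57 TPM and read 30.0, 35.0, 30.4 and 32.4 CPM in WT and 26.7, 32.1, 29.3 and 28.04 CPM in Mvp KO samples. The genotypes overlapped through Mvp KO replicate 2 (log2 fold change -0.14, SE 0.0837). *Slc6a11*, the GABA transporter GAT-3, was at 136 ± 10.8 TPM, and *Slc25a18*, a mitochondrial glutamate carrier, at 129 ± 13.8 TPM. *Slc6a11* was even across samples apart from Mvp KO replicate 1, which read 139.5 CPM where the other 7 samples were between 159.0 and 176.3 CPM.

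The group of gap junctions, channels, ion and water transport holds 9 genes, of which 0 were called and all 9 had a log2 fold change below 0 (median -0.114). *Gja1* and *Gjb6* encode connexin 43 and connexin 30, the gap junction proteins of astrocytes. *Gja1* read 233, 212, 239 and 200.2 CPM in WT and 195, 214, 209.8 and 198 CPM in Mvp KO samples. WT replicates 2 and 4 lay within the Mvp KO values, and the log2 fold change was -0.11 (SE 0.0762). *Gjb6* read 83.3, 91.9, 95.9 and 71.5 CPM in WT and 76.3, 60.6, 88.7 and 84.8 CPM in Mvp KO samples, with Mvp KO replicate 2 the lowest and WT replicate 4 the next (log2 fold change -0.14, SE 0.131). Without WT replicate 3, WT replicate 4 or Mvp KO replicate 2 it was -0.087, -0.22 or -0.043. Per length of the exon union, *Gja1* was at 86.4 ± 7.44 TPM, below *Gjb6* at 127 ± 19.1 TPM. With the length of the longest transcript in place of the exon union, *Gja1* was at 178 TPM and *Gjb6* at 126 TPM, so the order of the connexins turns with the length used.

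*Kcnj10*, the inward rectifier potassium channel Kir4.1, had the lowest log2 fold change of the list. It read 152, 210.4, 176 and 249.5 CPM in WT and 151, 206, 167 and 161 CPM in Mvp KO samples. The WT samples alone ranged from 152 CPM in replicate 1 to 249.5 CPM in replicate 4, which is wider than the distance between the genotype means (log2 fold change -0.20, SE 0.156). Leaving out WT replicate 4 left a log2 fold change of -0.068, leaving out WT replicate 1 or Mvp KO replicate 2 gave -0.31 each, and limma voom gave -0.096. *Aqp4*, the water channel of the end-feet, read 125, 119, 121 and 111 CPM in WT and 117, 117, 90.2 and 109.6 CPM in Mvp KO samples. Mvp KO replicate 3 was the lowest sample, and without it the log2 fold change of -0.13 (SE 0.0916) became -0.054, whereas limma voom gave -0.25.

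The intervals of the other genes of this group all included 0. *Atp1b2*, a beta subunit of the sodium pump, was at 304 ± 35.7 TPM and had a log2 fold change of -0.15 (SE 0.110), and *Slc4a4*, a sodium bicarbonate cotransporter, at 57.0 ± 7.39 TPM. *Mlc1* and *Hepacam* encode membrane proteins that act together in water and ion balance and are mutated in a human leukodystrophy, and they were at 232 ± 23.6 and 60.6 ± 5.95 TPM. *Cldn10*, a claudin, was at 38.9 ± 5.78 TPM and was lowest in WT replicate 4, at 18.8 CPM, where the other samples were between 22.1 and 28.3 CPM.

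Among the 8 metabolic and lipid enzymes, 0 were called, 6 had a log2 fold change below 0 and 2 above (median -0.106). *Aldoc* encodes aldolase C, a glycolytic enzyme of the brain that marks astrocytes, and was at 974 ± 67.9 TPM. It read 755, 887, 782 and 809.9 CPM in the WT samples, in the order of their replicate numbers, and 675, 744, 732 and 727 CPM in the Mvp KO samples. All 4 Mvp KO samples were below all 4 WT samples, with Mvp KO replicate 2 and WT replicate 1 the nearest pair. The log2 fold change was -0.17 (SE 0.0745, unadjusted p = 0.0490, adjusted p = 0.969, edgeR's quasi-likelihood test), a difference of -11.0% with an interval that ended at -0.00091. The exact two-sided permutation test over samples gave p = 0.0286, the smallest that 4 against 4 samples allow. That p follows from the lack of overlap between the genotypes, so it adds no support of its own. Leaving out each sample in turn gave log2 fold changes of *Aldoc* between -0.20 and -0.12.

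*Ndrg2*, a differentiation-associated gene enriched in astrocytes, was at 792 ± 38.4 TPM. It read 644, 706, 649.6 and 705 CPM in WT and 600.2, 657, 595 and 612 CPM in Mvp KO samples, where Mvp KO replicate 2 was above 2 of the WT samples (log2 fold change -0.13, SE 0.0694). *Acsbg1*, an acyl-CoA synthetase for very long fatty acids, was at 141 ± 13.8 TPM and read 118, 145, 125 and 126 CPM in WT and 99.1, 126, 117 and 119 CPM in Mvp KO samples. WT replicate 2 was its highest and Mvp KO replicate 1 its lowest sample, with the remaining samples close together (log2 fold change -0.16, SE 0.0936), and without them in turn it was -0.097 and -0.089. *Aldh1l1*, the folate enzyme used to label astrocytes throughout the brain, was at 53.5 ± 4.16 TPM and read 51.4, 65.9, 63.1 and 63.6 CPM in WT and 51.2, 56.0, 57.9 and 55.4 CPM in Mvp KO samples. WT replicate 1 lay nearly as low as the lowest Mvp KO sample (log2 fold change -0.15, SE 0.0875), and without WT replicate 1 the log2 fold change was -0.22 (unadjusted p = 0.0137, adjusted p = 0.872, edgeR's quasi-likelihood test). The sample left out was the WT sample within the Mvp KO values, so the smaller p adds no support.

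*Dio2*, the deiodinase that makes active thyroid hormone, was among the most variable genes of the list, at 112 ± 29.6 TPM. It read 197, 184, 151 and 90.2 CPM in WT and 158, 109, 166 and 193 CPM in Mvp KO samples, lowest in WT replicate 4 and next lowest in Mvp KO replicate 2. *Ppp1r3c*, a glycogen-targeting subunit of protein phosphatase, was at 107 ± 22.8 TPM and was highest in Mvp KO replicate 1 and WT replicate 2. *Plpp3*, a lipid phosphatase, was at 324 ± 24.1 TPM, and *Pla2g7*, the plasma type of platelet activating factor hydrolase, at 168 ± 20.4 TPM.

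Of the 3 cell surface receptors, 0 were called and all 3 had a log2 fold change below 0 (median log2 fold change -0.061). *Gpr37l1*, a G protein-coupled receptor of glia, was at 303 ± 34.0 TPM, *Ntsr2*, a neurotensin receptor, at 127 ± 9.62 TPM, and *F3*, tissue factor, which starts blood coagulation, at 70.4 ± 8.20 TPM. Their log2 fold changes were -0.12 (SE 0.104), -0.051 (SE 0.0723) and -0.061 (SE 0.101).

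The 7 secreted and matrix genes held 3 of the 4 highest levels of the list, and 0 of the 7 were called (median log2 fold change -0.066). *Sparcl1*, or hevin, is a matrix protein that promotes synapse formation, *Cst3* encodes the protease inhibitor cystatin C, and *Apoe* the main lipid carrier of the brain. *Cst3* was at 2039.8 ± 191 TPM and *Apoe* at 1979 ± 205 TPM, with overlapping ranges. *Apoe* read 1065, 1112, 1049.5 and 919.8 CPM in WT and 1110.4, 989, 903 and 959 CPM in Mvp KO samples. Its second highest sample was Mvp KO replicate 1 and its lowest was Mvp KO replicate 3, so the Mvp KO samples covered nearly the whole range (log2 fold change -0.066, SE 0.0900). It was -0.032 and -0.12 without WT replicates 2 and 4, -0.12 and -0.025 without Mvp KO replicates 1 and 3, and -0.16 with limma voom. *Clu*, the chaperone clusterin, at 661 ± 37.8 TPM, varied least of the 37 genes, with a pooled SD of 0.0448 on the log2 scale.

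The remaining secreted genes were *Htra1*, a serine protease, at 204 ± 17.1 TPM, *Bcan*, the proteoglycan brevican, at 169.8 ± 14.8 TPM, and *Mfge8*, which bridges phosphatidylserine to phagocytes, at 155 ± 23.1 TPM. *Mfge8* was lowest in WT replicate 4, at 126.9 CPM, where the other samples were between 168 and 197.5 CPM. *Bcan* had the log2 fold change closest to 0, at -0.0020, with an interval of -0.18 to 0.18.

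Of the 4 genes of cytoskeleton, calcium binding and transcription, *Gfap*, *Sox9* and *Vim* had wide pooled SDs of 0.445, 0.378 and 0.372 on the log2 scale and *S100b* had 0.178, against the median of 0.136 for the list. *Dio2*, among the enzymes, had 0.435. None of the 4 was called, and 3 had a log2 fold change above 0 (median 0.050). *Gfap*, glial fibrillary acidic protein, was at 78.0 ± 24.1 TPM and read 65.3, 63.6, 80.6 and 91.4 CPM in WT and 126, 74.5, 47.6 and 81.4 CPM in Mvp KO samples. Both its highest and its lowest sample were Mvp KO, replicates 1 and 3, with the 4 WT samples between them (log2 fold change 0.13, SE 0.258). Without Mvp KO replicate 1 the log2 fold change of *Gfap* was -0.15, and with limma voom it was -0.16, so its direction depends on 1 sample and on the tool.

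*Vim* encodes vimentin, the other intermediate filament protein of reactive astrocytes. It read 30.4, 32.1, 32.6 and 32.1 CPM in WT and 53.8, 27.6, 23.6 and 28.6 CPM in Mvp KO samples. The WT samples were nearly equal, and Mvp KO replicate 1 was above all 7 other samples. With that sample the log2 fold change was 0.071 (SE 0.229), and without it -0.26 (unadjusted p = 0.0184, adjusted p = 0.997, edgeR's quasi-likelihood test), as the other 3 Mvp KO samples were below all WT samples. The sample left out was the highest of all, so this p adds no support. The difference of *Vim* is given because its values drew attention, not by the rule for named genes. Those of *Atp1b2*, *Bcan*, *Gpr37l1*, *Ntsr2* and *F3* are also outside that rule.

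*S100b*, a calcium-binding protein, was at 294 ± 32.9 TPM and read 92.3, 118, 103 and 119 CPM in WT and 121, 100.3, 92.7 and 92.2 CPM in Mvp KO samples. Its highest value came from Mvp KO replicate 1, next to WT replicates 2 and 4 (log2 fold change -0.093, SE 0.113), and 6 of the 8 samples moved this value by over 1.5 times when left out, to between -0.19 without Mvp KO replicate 1 and -0.041 without WT replicate 4. *Sox9*, a transcription factor that marks astrocyte nuclei, was the lowest gene of the list and read 15.3, 20.3, 15.9 and 21.8 CPM in WT and 19.98, 25.1, 11.5 and 18.2 CPM in Mvp KO samples. Its highest and lowest samples were again both Mvp KO, replicates 2 and 3 (log2 fold change 0.028, SE 0.220), and its direction turned with limma voom (-0.14) and when any of 4 samples was left out.

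**Figure D3:**
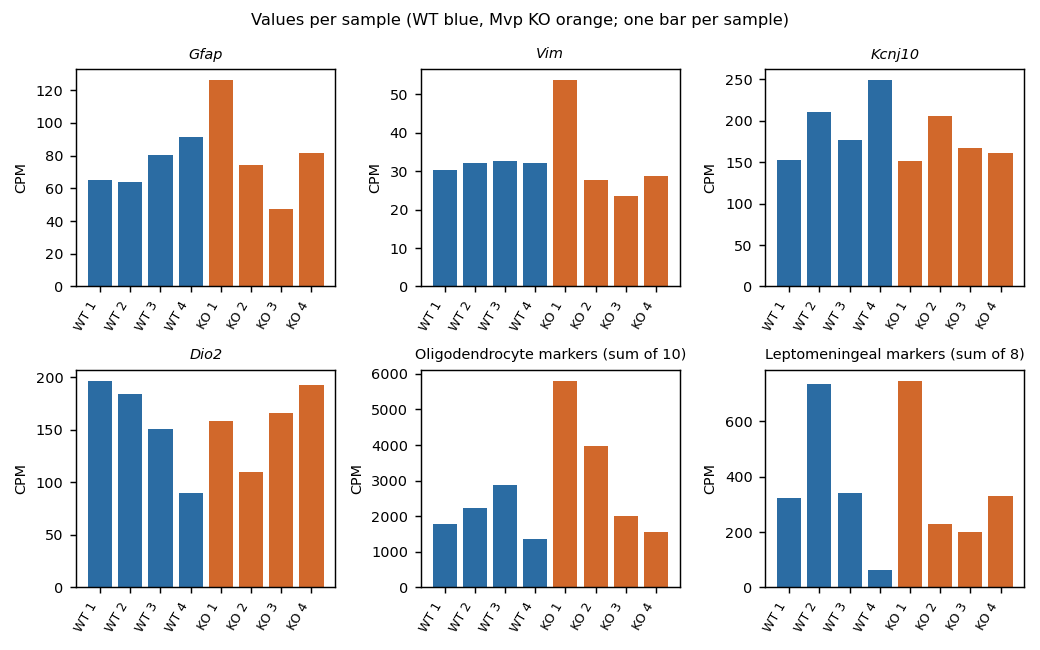
CPM in each of the 8 samples, 1 bar per sample, for *Gfap*, *Vim*, *Kcnj10* and *Dio2* and for the summed markers of oligodendrocytes (10 genes) and leptomeningeal fibroblasts (8 genes). Mvp KO replicate 1 is highest for *Gfap*, *Vim* and both marker sums, and WT replicate 4 is highest for *Kcnj10* and lowest for *Dio2* and both marker sums.

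Mvp KO replicate 1, the sample in which *Gfap* and *Vim* were highest, also stood highest in the marker sums of other cell types. These were oligodendrocytes, leptomeningeal fibroblasts, and ependyma with choroid plexus. The 10 oligodendrocyte markers summed to 1777, 2228, 2864 and 1359 CPM across the WT samples, in replicate order, and to 5811, 3976, 1993 and 1564 CPM across the Mvp KO samples. All 10 had a log2 fold change above 0 (median 0.67) and 0 were called. Without Mvp KO replicate 1 the median was 0.29, and with limma voom, which weights samples by their quality, it was -0.053. The 8 leptomeningeal fibroblast markers summed to 323, 734, 339 and 63.5 CPM in WT and 747, 227, 201 and 329 CPM in Mvp KO samples, with at least 7 of the 8 above 0 counts in each sample. Mvp KO replicate 1 was the highest sample in both sums and WT replicate 4, which had the second highest *Gfap*, the lowest. Mvp KO replicate 2 had the second highest oligodendrocyte sum with *Gfap* at 74.5 CPM and *Vim* at 27.6 CPM. The part of other cell types in the values of *Gfap* and *Vim* was not tested. Microglia markers had a log2 fold change below 0 for 10 of 10 genes (median -0.122, and -0.116 without WT replicate 4), with 0 called. Neuron markers were below 0 for 8 of 10 genes (median -0.103), with 0 called, but for 5 of 10 (median -0.00090) without WT replicate 4, where they summed to 13503 CPM against 9611 to 10788 CPM in the Mvp KO samples.

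Within each genotype the samples differed in the list as a whole. WT replicate 2 was the highest sample for 18 of the 37 genes, and Mvp KO replicate 1 was the lowest for 15 and Mvp KO replicate 3 for 10. The median of the 37 genes, as the log2 difference from the mean over the 8 samples, was 0.0072, 0.149, 0.044 and -0.039 in WT replicates 1 to 4. In Mvp KO replicates 1 to 4 it was -0.104, 0.047, -0.062 and -0.062. Mvp KO replicate 2 thus lay among the WT samples and WT replicate 4 among the Mvp KO samples.

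**Figure D4:**
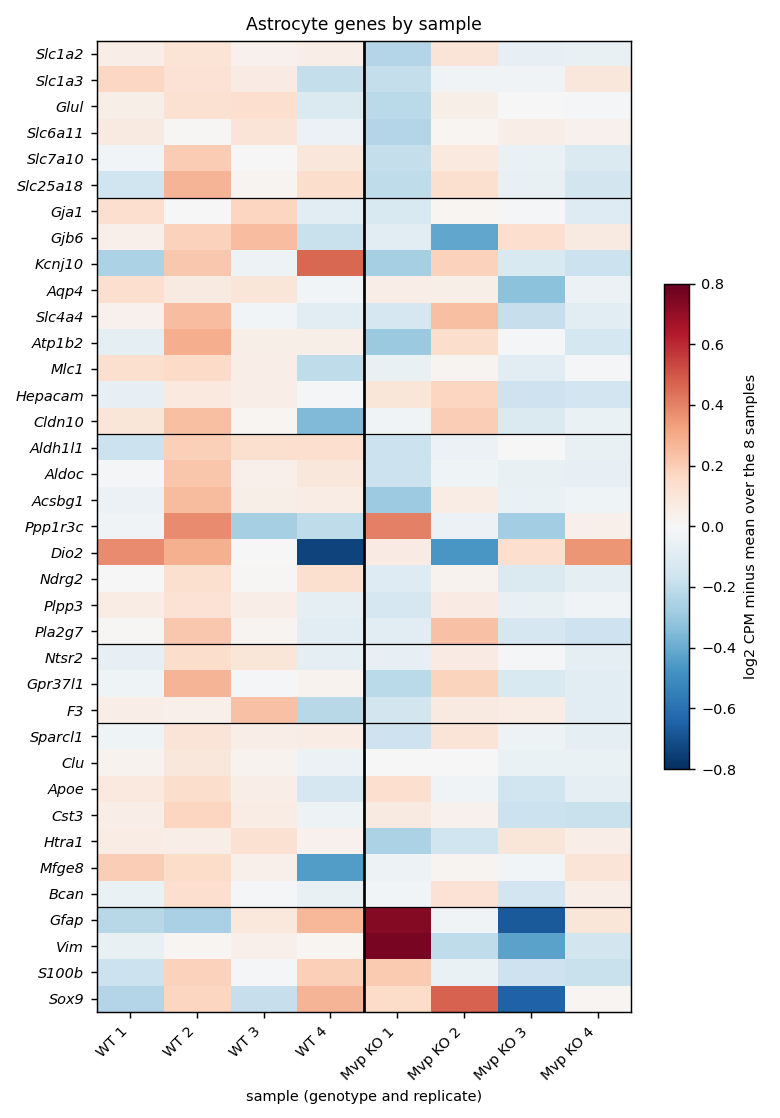
Log2 CPM minus the mean over the 8 samples for each of the 37 astrocyte genes (rows, grouped by role) in each sample (columns), with red above and blue below the mean. WT replicate 2 is above the mean for most genes and Mvp KO replicate 1 below it for most genes, with *Gfap*, *Vim* and *Ppp1r3c* far above it, while *Kcnj10*, *Dio2*, *Cldn10* and *Mfge8* set WT replicate 4 apart.

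Ratios between pairs of genes do not depend on the scaling of a library, and 5 of them were compared with exact two-sided permutation tests. The size of a ratio depends on the gene length used, here the exon union, while its difference between genotypes does not. The mean of *Slc1a2* to *Slc1a3* was 3.21 on the exon union and 1.89 on the longest transcript. For *Gja1* to *Gjb6* these means were 0.690 and 1.43. *Slc1a2* stood to *Slc1a3*, per length, at 2.96, 3.19, 3.14 and 3.80 in the WT samples and 3.10, 3.51, 3.12 and 2.89 in the Mvp KO samples. The log2 ratio differed by -0.051 between the genotypes (SE 0.0966, exact p = 0.571). *Gja1* stood to *Gjb6* at 0.729, 0.602, 0.648 and 0.730 in WT and 0.666, 0.921, 0.616 and 0.608 in Mvp KO samples (difference of log2 ratios 0.037, SE 0.156, exact p = 0.8286). Mvp KO replicate 2 was the highest of these and the remaining 7 samples lay between 0.602 and 0.730.

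*Glul* stood to *Slc1a2* at 1.87, 1.88, 2.01 and 1.66 in WT and 1.90, 1.81, 1.95 and 1.94 in Mvp KO samples (difference of log2 ratios 0.036, SE 0.0622, exact p = 0.629). This was the most even of the 5 ratios, from 1.66 to 2.01. *Gfap* stood to *Aldh1l1* at 1.36, 1.03, 1.37 and 1.54 in WT and 2.64, 1.42, 0.880 and 1.57 in Mvp KO samples (difference of log2 ratios 0.20, SE 0.348, exact p = 0.60). Its highest value, in Mvp KO replicate 1, and its lowest, in Mvp KO replicate 3, both came from Mvp KO samples. *Aqp4* stood to *Kcnj10* at 0.710, 0.491, 0.597 and 0.388 in WT and 0.675, 0.495, 0.470 and 0.591 in Mvp KO samples (difference of log2 ratios 0.050, SE 0.223, exact p = 0.857). No ratio passed the test, with an adjusted p of 0.857 for each after Benjamini-Hochberg adjustment over the 5, where the smallest p the design allows is 0.0286.

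To show what lies upstream of members with unlike sample patterns, 250 bases before the RefSeq start are given for *Gfap*, which had the widest spread, *Kcnj10* and *Dio2*, which stood highest and lowest in WT replicate 4, and *Slc1a3*, a gene with both a STAT-type and a TATA match. Sequences are from RefSeq on GRCm38.p6, in the direction of transcription. Capitals mark a match to 1 of 4 motifs on either strand: TTGGC, an arm of the nuclear factor I site, AACAAT, a SOX core, TTCNNNGAA, a STAT core, and TATAAA, the TATA box. None of the 4 windows overlaps an annotated exon. That of *Gfap* lies within the span of the annotated gene, which has longer transcripts.
Gfap, chr11:102897201-102897450, reverse strand: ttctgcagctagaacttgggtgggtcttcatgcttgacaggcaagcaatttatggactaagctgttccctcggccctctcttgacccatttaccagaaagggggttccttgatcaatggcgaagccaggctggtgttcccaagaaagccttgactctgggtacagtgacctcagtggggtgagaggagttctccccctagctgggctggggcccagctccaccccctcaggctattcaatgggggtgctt
Kcnj10, chr1:172340960-172341209, forward strand: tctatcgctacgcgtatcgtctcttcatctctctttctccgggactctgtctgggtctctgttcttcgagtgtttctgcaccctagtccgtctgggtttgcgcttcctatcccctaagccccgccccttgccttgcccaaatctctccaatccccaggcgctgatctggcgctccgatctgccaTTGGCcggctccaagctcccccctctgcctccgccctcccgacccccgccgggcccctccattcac
Dio2, chr12:90739039-90739288, reverse strand: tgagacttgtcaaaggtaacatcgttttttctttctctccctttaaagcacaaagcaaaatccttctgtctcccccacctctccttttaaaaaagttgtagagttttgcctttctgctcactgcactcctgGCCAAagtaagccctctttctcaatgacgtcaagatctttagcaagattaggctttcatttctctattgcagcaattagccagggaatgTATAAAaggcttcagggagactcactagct
Slc1a3, chr15:8710808-8711057, reverse strand: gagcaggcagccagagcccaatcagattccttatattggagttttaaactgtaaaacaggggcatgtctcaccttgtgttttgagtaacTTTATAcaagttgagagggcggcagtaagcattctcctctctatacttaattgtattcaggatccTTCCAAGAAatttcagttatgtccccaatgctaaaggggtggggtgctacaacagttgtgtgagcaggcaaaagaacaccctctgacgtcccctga

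Promoter windows were at hand for 32 of the 37 genes, 39 windows in all. Many of the 39 overlap annotated exons. The windows of *Glul*, *Vim*, *Mlc1* and *Hepacam* and a window of *Slc4a4* are exonic over all 250 bases. Exon overlap was not read for the 32851 windows of all genes. TTGGC was found in 48.7% of them against 41.5% of all 32851 windows, in 16 genes that include *Slc1a2*, *Glul*, *Kcnj10* and *Aldoc*. TTCNNNGAA was found in 12.8% against 7.02%, in *Acsbg1*, *Aldoc*, *Ntsr2*, *Pla2g7* and *Slc1a3*. TATAAA was found in 15.4% against 12.4%, in *Apoe*, *Dio2*, *Ndrg2*, *Slc1a3*, *Slc25a18* and *Vim*. AACAAT was in 0 of the 39 windows against 9.42%. *Gfap* held none of the 4 motifs in this window. These matches describe letters and are not measured binding.

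Genes that work with the 37 members were read from 6 further lists, and 0 genes were called in any of them. Of 11 partners of the glutamate-glutamine cycle, 8 had a log2 fold change below 0 (median -0.051), with the smallest p for *Slc38a3*, the glutamine exporter of astrocytes (log2 fold change -0.12, SE 0.0744), and *Slc17a7*, the vesicular glutamate transporter of neurons (-0.28, SE 0.194). *Slc17a7* read 2731 CPM in WT replicate 4 and between 1335 and 1678 CPM in the other samples, and its log2 fold change was -0.020 without that sample. Of 7 genes of the dystrophin complex, which anchors channels in the end-feet, 6 were below 0 (median -0.109), led by *Dtna* (-0.22, SE 0.142) and *Dag1* (-0.20, SE 0.131). Both were highest in WT replicate 4, and without it their log2 fold changes were -0.028 and -0.069, and *Dag1* was at -0.12 without Mvp KO replicate 1. Without WT replicate 4 the medians of these lists were -0.015 and -0.018.

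Of 12 astrocyte transcription factors, 6 were below and 6 above 0 (median -0.0046). *Hes5*, a target of Notch signalling, read 9.997, 9.95, 6.17 and 9.18 CPM in WT and 4.76, 7.30, 5.73 and 6.84 CPM in Mvp KO samples. The groups overlapped through WT replicate 3, and the log2 fold change of -0.52 (SE 0.192, unadjusted p = 0.0228, edgeR's quasi-likelihood test) did not pass after adjustment (adjusted p = 0.969). *Emx2*, a homeobox factor, had -0.19 (SE 0.110), and -0.12 without WT replicate 2. When WT replicate 4 was left out the median of the factors was -0.029, and when Mvp KO replicate 1 was, it was 0.015. Of 13 glycogen and lactate genes, 10 were below 0 (median -0.078), with the smallest p for *Slc2a1*, the glucose transporter GLUT1 of vessels and glia (-0.39, SE 0.199), and *Pfkfb3*, a regulator of glycolysis (-0.31, SE 0.215). Both were highest in WT replicate 4, and without it they had -0.22 and -0.092, with 7 of 13 genes below 0 and a median of -0.031 for the list.

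Of 24 reactive astrocyte genes, which respond to injury and inflammation, 18 passed the filter, with 9 above and 9 below 0 and a median of 0.0017. Without Mvp KO replicate 1, 15 were below 0 (median -0.31), and with limma voom 14 were (median -0.14). The 6 that did not pass, *Lcn2*, *Timp1*, *Cxcl10*, *Tgm1*, *Ptx3* and *Slc10a6*, had between 15 and 82 counts summed over the 8 samples. The smallest p among those tested was that of *S100a10*, an annexin-binding protein (-0.20, SE 0.101, and -0.13 without Mvp KO replicate 2), then *Aspg*, an asparaginase (-1.13, SE 0.585). *Aspg* read 19.5 CPM in WT replicate 4 and 2.89 to 4.07 CPM in all other samples, and without that sample its log2 fold change was -0.026.

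Of 12 genes of astrocytes that form or clear synapses, 8 were below 0 (median -0.100). *Chrdl1*, a secreted factor for synapse maturation, read 39.4, 38.9, 31.1 and 51.9 CPM in WT and 23.6, 28.4, 31.1 and 33.7 CPM in Mvp KO samples. Only WT replicate 3 was within the Mvp KO values (log2 fold change -0.47, SE 0.160, unadjusted p = 0.0162, adjusted p = 0.969, edgeR's quasi-likelihood test). *Chrdl1* was highest in WT replicate 4, and leaving out each sample in turn gave it log2 fold changes between -0.58 and -0.32. *Tnc*, the matrix glycoprotein tenascin C, read 3.72, 2.79, 3.86 and 22.6 CPM in WT and 3.64, 2.75, 2.29 and 2.28 CPM in Mvp KO samples. Its log2 fold change of -1.58 (SE 0.654) was -0.32 without WT replicate 4. Without that sample 7 of the 12 genes were below 0, with a median of -0.029, and with limma voom *Chrdl1* had -0.21.

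**Figure D5:**
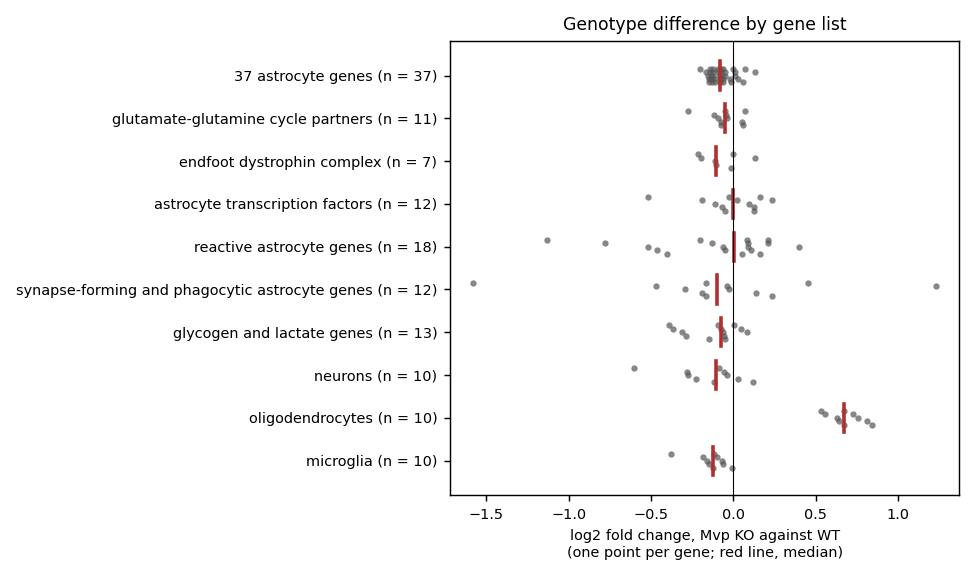
Log2 fold change, Mvp KO against WT, of each tested gene of the astrocyte list, of 6 related lists and of markers of 3 other cell types, 1 point per gene with the list's median as a red line. The 37 astrocyte genes lie between -0.20 and 0.13, oligodendrocyte markers around 0.67 (0.29 without Mvp KO replicate 1 and -0.053 with limma voom), and the widest values belong to the reactive and synapse-forming lists.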

How the data were processed

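Gene counts came from the cingulate gyrus of 4 WT and 4 Mvp KO samples, grouped by the genotype in their labels. The authors made stranded libraries of polyadenylated RNA, trimmed single-end reads of 50 bases with cutadapt 1.10, removed ribosomal reads with Bowtie2 2.2.8, mapped to mm10 with STAR 2.5.3a and counted with HTSeq 0.6.1p1 on Ensembl genes. They deposited 1 table of raw counts. The strand setting of the counting is not given in the sources used here. The exons of *Slc7a10*, *Pla2g7* and *Aldh1l1* overlap a gene on the other strand by 17.9%, 11.0% and 11.0%. Depending on that setting, their counts over the shared bases may be affected.

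Counts were fitted in R 4.3.3 with edgeR 4.0.16 (filterByExpr, minimum count 10, TMM factors, robust quasi-likelihood test, genotype as the single term), with Benjamini-Hochberg adjustment over 16914 genes and a threshold of 0.05. Intervals are 95% intervals of that fit. Ratios were compared with exact permutation tests over 70 arrangements. Exon lengths and symbols came from GENCODE vM21 on GRCm38, which held 53274 of the 53379 identifiers. With 28456504 to 42854368 counts per sample, the spread between samples limits precision for these genes more than counting does. The edgeR, DESeq2 and limma voom fits were tested on simulated counts. These were drawn independently around a mean per gene and genotype, with no sample set apart. They cannot show how the fits treat a sample such as WT replicate 4. The alternatives were DESeq2 1.42.0 (size factors, Wald test), limma 3.58.1 voom with sample weights, other filters, a replicate block and leaving out each sample.

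The rule for the members uses no measured value, but they and the other lists were chosen with earlier results of these data known. Every member is named with its level. The genotype difference with its error is given for *Slc1a2*, *Slc1a3*, *Glul*, *Gja1*, *Gjb6*, *Kcnj10*, *Aqp4*, *Aldh1l1*, *Gfap*, *Apoe*, *S100b* and *Sox9*, for the 8 members with the smallest p, for members whose genotypes do not overlap, and for the 2 genes with the smallest p in each other list.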

Additional observations from a re-analysis of the deposited data

Results flagged for a closer look

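In groups of 4 samples, a sample was singled out where its gap to the nearest other sample exceeded Dixon's 95% critical value as a share of the group's range. Of 90 groups tested 4 did so, where chance gives 4.5 (about 1 in 20). *Slc6a11* in Mvp KO had a share of 0.864, with Mvp KO replicate 1 at 139.5 CPM and the others between 166 and 170.2 CPM. *Vim* in Mvp KO had 0.833, with Mvp KO replicate 1 at 53.8 CPM and the others between 23.6 and 28.6 CPM. Total counts in WT had 0.857, with WT replicate 2 at 42854368 and the others between 33408202 and 34760784. The first principal component in WT had 0.980, with WT replicate 4 at 71.5 and the others between -10.5 and -8.87. That component was computed from these same samples, so its gap is not an independent check. *Slc6a11* and *Vim* thus stood out in the same sample in opposite directions.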

How the results depend on the processing

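No astrocyte gene was called under any setting that was run, and the median log2 fold change of the 37 genes was below 0 in each. Without WT replicate 4, unadjusted p was 0.0396 for *Gja1* and 0.0321 for *Mlc1* (edgeR's quasi-likelihood test, adjusted p = 0.9999 for both). Sizes were less stable: of the 29 genes whose log2 fold change was followed, 14 moved by over 1.5 times or changed sign with limma voom, 9 when Mvp KO replicate 1 was left out, 15 when WT replicate 4 was, 4 with the replicate block and 0 with DESeq2 or another filter. With limma voom *Slc17a7* had -0.0036, *Aspg* -0.21 and *Tnc* -0.56. List medians under limma voom and without single samples were added after seeing the data. The number of genes called over the whole table was 2 with DESeq2's Wald test and 0 to 1 when a sample was left out. The log2 fold change of *Mvp* was then between -2.22 and -1.99. *Gfap* was -0.16 and *Sox9* -0.14 with limma voom. When a sample was left out, *Gfap* lay between -0.15 and 0.32 and *Sox9* between -0.15 and 0.20. For differences of log2 ratios, the ranges were -0.10 to 0.023 for *Slc1a2* to *Slc1a3*, -0.10 to 0.099 for *Gja1* to *Gjb6*, -0.016 to 0.075 for *Glul* to *Slc1a2*, -0.065 to 0.46 for *Gfap* to *Aldh1l1* and -0.10 to 0.19 for *Aqp4* to *Kcnj10*. The median level was 171.5 TPM with the longest transcript as length. The cause of these changes was not tested.

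Same-numbered samples deviated together with correlations of 0.055, 0.287, -0.0067 and 0.051, and 2 of 8 samples correlated best with their own number. No clear pairing by number was seen, but with 4 samples per genotype this check cannot tell whether the numbers pair the samples. With the replicate block, 0 genes were called over the table, *Mvp* had a log2 fold change of -2.07 (adjusted p = 0.0850, edgeR's quasi-likelihood test), *Sox9* was -0.0051, 0 of the 37 genes were called, the median was -0.083 and 35 intervals lay within 1.5-fold. With 4 samples per genotype, the intervals of *Gfap* and *Vim* still hold a 1.5-fold higher level in Mvp KO.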
